A study of Tetranychus urticae with 8 samples.

Results

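In the spider mite Tetranychus urticae (strain London), 708 gene IDs outside the tetur09g series do not end in 0, here called off-step IDs, and the 281 of them expressed in adults are described. These 281 were selected on read counts: an ID had to reach 0.7 CPM (reads per 1000000 reads on genes of that library) in at least 4 of the 8 libraries. The whole table held 17654 IDs, and 12070 of the 16258 that end in 0 outside tetur09g passed the same rule. The study sequenced polyadenylated RNA from whole bodies of adult mites reared on leaves of common bean, in 4 libraries of males and 4 of females. Males were 1 to 2 days old, with about 800 animals pooled per library. Females were 3 days old, with about 200 animals pooled per library. Both sexes were of the same strain with no treatment named. Age and pool size differ together with sex and cannot be told apart from it.

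Spider mites are haplodiploid: males hatch from unfertilized eggs and females from fertilized ones. Adult females are much larger than males and devote much of the body to egg production, and genes used in ovaries, testes and sperm weigh heavily in whole-body comparisons of the sexes in arthropods. A gene ID of this species names a scaffold of the genome sequence (tetur02), followed by a running number that otherwise moves in steps of 10. An ID that does not end in 0 therefore stands off the regular step. The files do not pair IDs with gene names, and 0 of the 17654 IDs occurred in the RefSeq gene table, so no function is given to any of them. Chemosensory receptors were not analysed here for the same reason.

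The off-step IDs were not scattered among the regular ones. Of the 281, 223 (79.4%) carried a number above the last ID ending in 0 on their scaffold, and the other 58 stood just before it. At least 94.9% of the IDs ending in 0 on the same scaffold had a lower number than any off-step ID, and at most 19 stood above one. Of all 708 off-step IDs, expressed or not, 606 (85.6%) lay beyond the last regular ID. Whether the numbering follows the order of the genes in the genome was not examined. The 281 came from 40 scaffolds of 409. Scaffold 02 held 49 of them, scaffold 01 held 26, and the 8 scaffolds with at least 10 held 167 together. The digit 1 was the most frequent last digit, with 74 IDs, followed by 3 with 35 and 9 with 31.

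The expression rule was met by 39.7% of the 708 off-step IDs and by 74.2% of the 16258 regular IDs. No read in any library was found for 161 off-step IDs (22.7%) and for 1320 regular IDs (8.12%). Of the 427 off-step IDs that failed, 266 had at least 1 read and 33 reached 0.7 CPM in 1 to 3 libraries. The 2 IDs just inside the threshold, tetur06g06803 and tetur12g04976, passed in the 4 male libraries alone, with a lowest male level of 0.717 CPM each. The 2 just outside, tetur02g15194 and tetur10g05824, passed in 3 libraries and had 0.692 CPM in the next.

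The libraries held 12082575 to 21414612 reads on genes, so that 3 reads correspond to 0.142 to 0.248 CPM in a library. Such limits cover counting error only. Across the 281 off-step IDs, log2 levels correlated at 0.990 to 0.995 between male libraries and at 0.992 to 0.993 between female libraries, but at 0.608 to 0.630 between libraries of opposite sex (IDs are not independent replicates). No library stood apart from its sex, and no replicate pair agreed within sampling noise (chi-square per degree of freedom 3.51 to 21.4). The labels call the libraries biological replicates without naming separate cultures, and the p-values accordingly reflect only how much these pools varied. Levels below are CPM scaled by the trimmed mean of M values, they are not corrected for gene length, and they order IDs by reads rather than by transcripts.

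More off-step IDs were higher in males than in females. A gene was called with an adjusted p under 0.05 and a 2-fold or larger fitted difference (edgeR quasi-likelihood test, Benjamini-Hochberg over all 12885 tested genes). By this, 135 of the 281 were higher in males (48.0%, against 30.5% of all tested genes) and 59 were higher in females (21%, against 26.9%). A further 57 differed by less than 2-fold and 30 did not pass the test. In all, 251 differed at some size (89.3%), which is near the 89.9% of all tested genes. The sexes did not overlap for 237 off-step IDs (84.3%, against 86.2%), with males above in 153 and females above in 84. The median log2 fold change, given throughout as female minus male, was -0.84 for the off-step IDs (quartiles -2.67 and 0.69) and -0.05 for all tested genes. In whole bodies, fewer cells of a type and less RNA per cell cannot be told apart. The typical standard error was larger for the off-step IDs, with a median of 0.16 on the log2 scale against 0.09 for all tested genes.

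**Figure D1:**
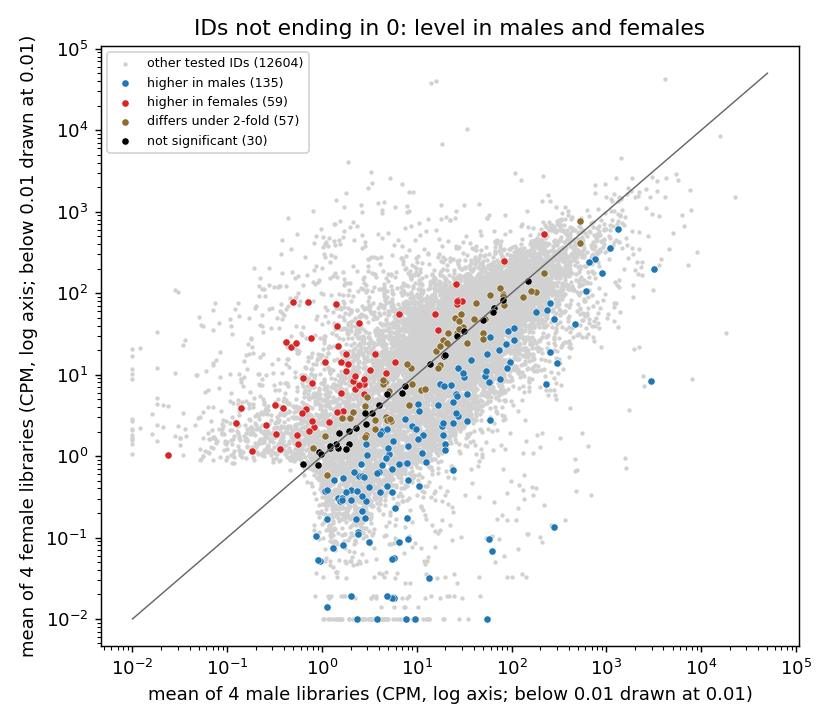
Mean level in the 4 male libraries (horizontal, CPM, log axis) against the mean in the 4 female libraries (vertical, CPM, log axis). Coloured points are the 281 off-step IDs by call, grey points the other tested IDs, the line marks equal levels, and values below 0.01 are drawn at 0.01. The 135 IDs higher in males lie below the line and reach 3210 CPM, and the 59 higher in females lie above it. Of the 135, 49 passed the expression rule in the 4 male libraries alone and had to differ. So did 9 of the 59, which passed in the 4 female libraries alone.

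The counts depend on how an ID met the expression rule, because an ID that passed in 1 sex alone had to differ. Of the 281, 49 reached 0.7 CPM in the 4 male libraries and in no female library, and all 49 were called higher in males. Only 9 passed in the 4 female libraries and in no male library, and all 9 were called higher in females. These IDs say nothing about the direction of the rest. Of the 12070 regular IDs, 602 passed in the 4 male libraries alone and 425 in the 4 female libraries alone. The 181 IDs at 0.7 CPM or more in all 8 libraries included 67 higher in males (37.0%), 34 higher in females (18.8%), 55 that differed by less than 2-fold and 25 that did not pass. Among the 10089 regular IDs that passed in all 8 libraries, the share called toward males was 25.8% and the share toward females 25.2%. The median log2 fold change was -0.25 for the 181 off-step IDs and 0.01 for these regular IDs. The remaining 42 off-step IDs passed in other combinations of libraries, and 19 of them (45.2%) were called toward males and 16 (38.1%) toward females. Among the 948 tested regular IDs that passed in such combinations, the shares were 42.8% and 32.6%.

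The sizes of the called differences are also given by how an ID met the rule. Of the 135, 39 were under 4-fold, 63 lay between 4-fold and 16-fold, and 33 reached 16-fold (24.4%, against 10.7% of the 3604 regular IDs higher in males). The 59 female-higher IDs split into 28 under 4-fold, 19 between 4-fold and 16-fold, and 12 that reached 16-fold (20.3%, against 16.2% of 3266 regular IDs). The median level in the higher sex was 8.10 CPM for IDs higher in males and 9.65 CPM for those higher in females, with 64 and 29 at 10 CPM or more. Of the 33 at 16-fold toward males, 26 had passed the rule in the 4 male libraries alone, as had 227 of the 385 regular IDs of that size. Among IDs that passed in all 8 libraries, 16-fold was reached by 6 of 67 off-step IDs (8.96%) and 4.77% of 2601 regular IDs called toward males, and by 3 of 34 (8.82%) and 10.1% of 2540 called toward females. These shares describe the calls and were not tested.

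The typical off-step ID had few reads. The median level of the 281 over both sexes was 6.23 CPM, against 25.8 CPM for the regular IDs that passed the same rule, and 128 of the 281 stood under 5 CPM. The calls are therefore given by abundance class. Among IDs under 1.5 CPM, 28 of 48 off-step IDs (58.3%) and 39.2% of 1058 regular IDs were higher in males. Of these 28, 26 had passed the rule in the 4 male libraries alone, so the rule set their direction, as for 315 of the 415 regular IDs. In the class from 1.5 to 5 CPM the shares were 50% of 80 and 44.1% of 1678, with 17 of the 40 off-step IDs passing in males alone. From 5 to 20 CPM they were 44.1% of 68 and 37.0% of 2621. From 20 to 100 CPM they were 33.9% of 59 and 21% of 4739. The gap between the shares was widest in the most abundant class, at 100 CPM or more, where 17 of 26 off-step IDs (65.4%) and 24.7% of 1956 regular IDs were higher in males. There 2 off-step IDs were higher in females (7.69%, against 23.4% of regular IDs). A further 6 differed by less than 2-fold (23.1%, against 44.6%) and 1 did not pass the test (3.85%, against 7.21%). Among IDs that passed in all 8 libraries, the shares higher in males were 21.1% of 38 off-step and 29.8% of 995 regular IDs from 1.5 to 5 CPM, the opposite order to that of all IDs in the class. They were 43.3% of 60 and 35.4% of 2425 from 5 to 20 CPM, 31.5% of 54 and 20.7% of 4647 from 20 to 100 CPM, and 64% of 25 and 24.8% of 1919 at 100 CPM or more.

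**Figure D2:**
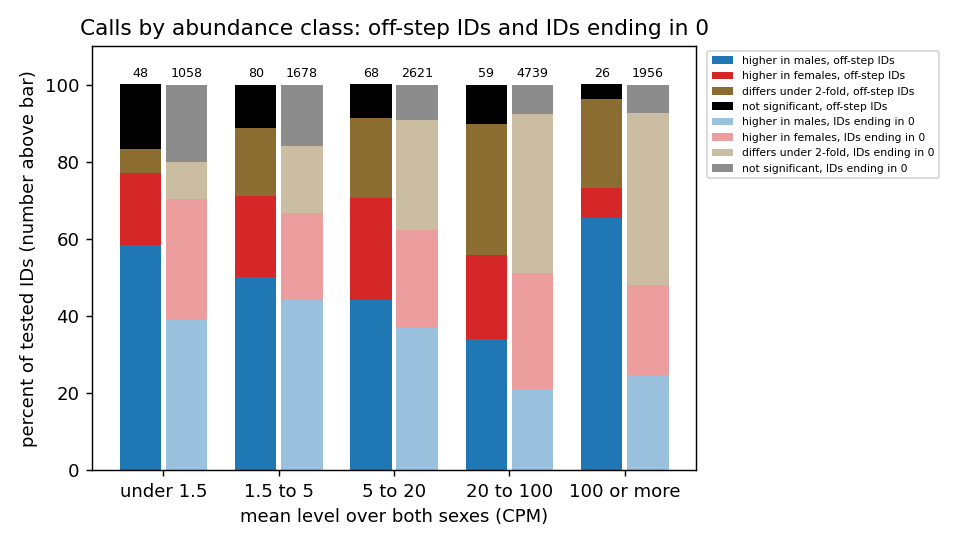
Share of tested IDs with each call (vertical, percent) by mean level over both sexes (horizontal, CPM), for off-step IDs (left bar, full colour) and IDs ending in 0 that passed the same rule (right bar, pale). Numbers above the bars are tested IDs; the blue part, higher in males, is 65.4% against 24.7% in the most abundant class, and in the lowest class 26 of the 28 off-step IDs in it had passed the rule in the male libraries alone.

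The pair of abundant IDs higher in females was looked at after the values were seen. The level of tetur07g08179 was 222.0, 215.8, 230.3 and 214.0 CPM in male replicates 1 to 4 and 531, 518, 571 and 526 CPM in female replicates 1 to 4. The difference on the log2 scale was 1.28 ± 0.06 (SE; edgeR adjusted p = 6.36e-12). The level of tetur17g04282 was 83.9 ± 5.9 CPM in males beside 250.0 ± 4.1 CPM in females (SD, n = 4 each), a log2 fold change of 1.57 ± 0.06. The groups did not overlap for either ID.

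In males, off-step IDs together drew more of the sequencing reads. Their 281 IDs together held 1.93%, 2.02%, 1.95% and 2.08% of the reads on genes in male replicates 1 to 4. They held 0.818%, 0.826%, 0.871% and 0.803% in female replicates 1 to 4. Every male library was above every female library, with means of 2.00% ± 0.07 in males and 0.83% ± 0.03 in females (SD, n = 4 each; exact two-sided permutation p = 0.0286, the smallest that 4 against 4 allows). The 10 IDs with the most reads made up 1.21% ± 0.06 in males and 0.359% ± 0.018 in females. Without these 10, the shares were 0.786% ± 0.013 and 0.470% ± 0.011, and the male libraries still stood above all female libraries (exact permutation p = 0.0286). The 281 were chosen on these same libraries, 49 through males alone and 9 through females alone, so these p-values are descriptive. All 708 off-step IDs, chosen by ID and not by reads, held 2.00% ± 0.07 in males and 0.83% ± 0.03 in females (exact permutation p = 0.0286).

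**Figure D3:**
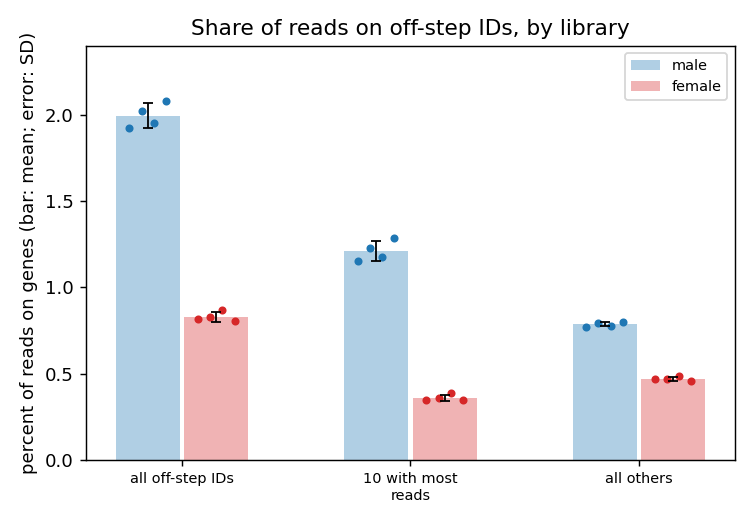
Percent of each library's reads on genes that fell on off-step IDs (vertical), for all 281, for the 10 with the most reads and for all others. Points are libraries, bars are means over 4 libraries and error bars are SD; the male libraries lie between 1.93% and 2.08% for all 281 and the female libraries between 0.803% and 0.871%.

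A few abundant IDs carried most of these reads in males. The ID tetur06g06933 had 2793, 3414, 3097 and 3554 CPM in male replicates 1 to 4, against 189, 199, 208 and 189 CPM in female replicates 1 to 4. All male libraries were more than 10 times as high as any female library, with a log2 fold change of -4.04 ± 0.08 (SE; edgeR adjusted p = 1.53e-15). The ID tetur38g00723 was about as abundant in males and far lower in females. Its level was 2777, 3121, 2731 and 3215 CPM in male replicates 1 to 4 and 8.45, 10.3, 7.4 and 6.86 CPM in female replicates 1 to 4. Its log2 fold change of -8.49 ± 0.13 (adjusted p = 7.73e-17 by edgeR) was the largest among the 6 off-step IDs with the most reads.

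The other IDs of these 6 were abundant in both sexes. The ID tetur11g06372 had 1316 ± 175 CPM in males beside 610 ± 53 CPM in females (SD, n = 4 each), with male libraries at 1145 to 1502 and female libraries at 533 to 647. The ID tetur03g10093 had 1098 ± 127 CPM in males beside 357 ± 53 CPM in females, and tetur40g00392 had 897 ± 79 and 174.1 ± 9.1 CPM. For all 3 the lowest male library was above the highest female library, with log2 fold changes of -1.11 ± 0.09, -1.62 ± 0.11 and -2.37 ± 0.07 (SE). By contrast, tetur17g04312 was higher in females, with male libraries at 526 ± 18 CPM and female libraries at 774 ± 17 CPM. The difference of 0.56 ± 0.05 on the log2 scale (adjusted p = 9.19e-08 by edgeR) is below the 2-fold minimum. The 4 IDs at 1000 CPM or more in males were tetur06g06933, tetur38g00723, tetur11g06372 and tetur03g10093, and 0 off-step IDs reached that level in females.

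The largest fitted differences among IDs at 10 CPM or more belonged to IDs present in males and all but absent in females. The 4 named here passed the expression rule in the 4 male libraries alone. They had to differ, so their adjusted p-values do not bear on direction. The ID tetur07g08035 had 806, 1209, 609 and 808 reads in male replicates 1 to 4, or 54.6 ± 4.1 CPM (SD, n = 4). In the 4 female libraries it had 0 reads. Against the limit of 3 reads over these 4 libraries the level in males was at least 1058-fold higher (edgeR adjusted p = 1.09e-13). The next 2 IDs follow each other in the numbering of expressed IDs on scaffold 02. The ID tetur02g15125 had 277.6, 287.5, 282.7 and 270.9 CPM in male replicates 1 to 4 and 0.136 ± 0.098 CPM in females, from 8 female reads in all. Its log2 fold change was -10.90 (edgeR adjusted p = 1.89e-17). The ID tetur02g15135 had 57.4, 61.8, 65.2 and 63.2 CPM in male replicates 1 to 4 and 4 female reads in all, a log2 fold change of -9.64. The last of the 4, tetur16g03865, had 62.0, 59.4, 62.9 and 48.1 CPM in male replicates 1 to 4. Its 6 female reads fell in replicates 1 and 3, and its log2 fold change was -9.01 (adjusted p = 1.92e-14 by edgeR). No SE is given for these IDs, because the SE used here understates counting error with so few female reads.

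The largest differences toward females were smaller and left a trace in every male library. Of the 4 named, tetur04g09479 and tetur07g08169 passed the expression rule in the 4 female libraries alone and so had to differ. The ID tetur04g09479 had 67.2, 86.2, 78.2 and 76.9 CPM in female replicates 1 to 4 and 0.496 ± 0.072 CPM in males, from 5 to 10 reads per library. Its difference on the log2 scale was 7.25 ± 0.13 (SE; edgeR adjusted p = 4.47e-16). The ID tetur22g02981 had 77.7 ± 6.3 CPM in females and 0.713 ± 0.291 CPM in males (SD, n = 4 each), a log2 fold change of 6.77 ± 0.14. Its male libraries ranged from 6 to 15 reads. The ID tetur07g08169 had 25.2 ± 2.5 CPM in females and 0.421 ± 0.186 CPM in males, and tetur05g09395 had 73.7 ± 4.3 and 1.41 ± 0.49 CPM. Their log2 fold changes were 5.95 ± 0.19 and 5.73 ± 0.12. No female library overlapped a male one for any of the 4, which was a condition for naming them. The SE of these IDs understates counting error, because their male reads were few.

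**Figure D4:**
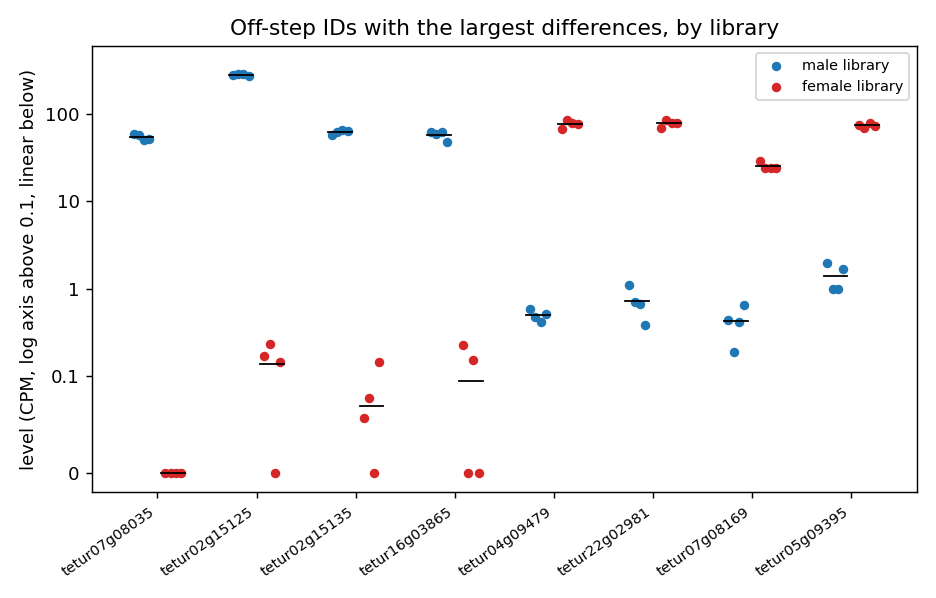
Level in each library (vertical, CPM, log axis above 0.1 and linear below) of the 4 off-step IDs with the largest differences toward males and the 4 toward females at 10 CPM or more in the higher sex. Points are libraries and black lines are means of 4. The male-higher IDs have female libraries at 0 to 0.231 CPM, and the female-higher IDs have male libraries at 0.189 to 1.97 CPM. The 4 male-higher IDs, tetur04g09479 and tetur07g08169 passed the expression rule in 1 sex alone and had to differ.

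Of the off-step IDs nearly without reads in 1 sex, each passed the rule through the other sex alone, so their direction is a description. There were 5 off-step IDs with 0 reads in the 4 female libraries and 0 with no read in males. A further 10 had 1 to 3 female reads in all, against 1 with as few male reads. Among the 12070 regular IDs, 91 had 0 to 3 female reads (0.754%, against 5.34% of the 281) and 51 had 0 to 3 male reads (0.423%, against 0.356%). Beside tetur07g08035, the IDs with 0 female reads were tetur02g14971, tetur02g14891, tetur04g09511 and tetur14g04182. Their male libraries held 124 to 184, 95 to 167, 43 to 73 and 20 to 57 reads, so that they were at least 182-fold, 150-fold, 72.1-fold and 46.5-fold higher in males. The levels were low, at 9.61 ± 0.70, 7.77 ± 0.57, 3.79 ± 0.50 and 2.34 ± 0.60 CPM in males (SD, n = 4 each). The single ID with as few male reads was tetur06g06793, with 2 male reads and a level of 1.04 CPM in females. It was 32.5 times as high in females, with a 95% exact counting interval of 8.60 to 274.1. The 2 IDs just inside the expression threshold were of the male kind: tetur06g06803 had 1 female read and was 66.6 times as high in males (interval 11.6 to 2665), and tetur12g04976 had 3 and was 17.6 times as high (interval 5.71 to 87.7).

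At the other end, some well-expressed off-step IDs stood at close levels in both sexes. The 4 smallest differences at 10 CPM or more were those of tetur02g15193, tetur05g09385, tetur27g02588 and tetur04g09567. The ID tetur02g15193 had 66.0, 65.5, 66.2 and 64.3 CPM in male replicates 1 to 4 and 67.6, 65.9, 60.9 and 67.7 CPM in female replicates 1 to 4. The groups overlapped, with a log2 fold change of 0.0017 ± 0.0495 (SE; edgeR adjusted p = 0.974). The ID tetur05g09385 had 80.9 ± 4.5 CPM in males beside 81.9 ± 2.5 CPM in females (SD, n = 4 each), and tetur27g02588 had 13.8 ± 1.9 and 13.6 ± 2.3 CPM. The ID tetur04g09567 had 149.2 ± 16.2 CPM in males beside 141.8 ± 9.6 CPM in females (log2 fold change -0.07 ± 0.07, adjusted p = 0.357 by edgeR). Its difference passed the threshold without male replicate 1 (adjusted p = 0.0452 by edgeR) and with upper quartile scaling (0.00261), which moved the median of all genes from -0.05 to -0.27. With that scaling tetur02g15193 and tetur05g09385 passed the test as lower in females, by -0.209 and -0.193 (edgeR adjusted p = 0.00072 and 0.00262), both less than 2-fold.

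Off-step IDs that stand together in the numbering often differed in opposite directions. The largest group between 2 consecutive regular IDs lay between tetur03g09900 and tetur03g10040, with 11 expressed IDs of 19. Of the 11, 5 were higher in males while 4 were higher in females, and the summed level was 151.8 ± 4.3 CPM in males beside 64.1 ± 2.3 CPM in females (SD, n = 4 each). The first 4 in ID order, tetur03g09921, tetur03g09941, tetur03g09961 and tetur03g09971, were higher in males, with log2 fold changes of -2.29, -3.00, -2.0 and -2.29. Of these, tetur03g09961 held most of the reads, with 106.2 ± 4.4 CPM in males beside 26.6 ± 3.4 CPM in females. The expression rule set the direction of tetur03g09971, which passed in the 4 male libraries alone. In the later stretch tetur03g10029 was higher in males (-1.92 ± 0.14, SE), while tetur03g10023, tetur03g10035 and tetur03g10039 were higher in females, with 2.36 ± 0.25, 3.15 ± 0.32 and 2.33 ± 0.13. The other female-higher ID, tetur03g09997, rested on few reads: its groups overlapped, its log2 fold change was 1.74 ± 0.63 (adjusted p = 0.0176 by edgeR), and without male replicate 2 or female replicate 4 the adjusted p was 0.0681 or 0.104. The ID tetur03g10033 was lower in females by less than 2-fold (-0.68 ± 0.19), and tetur03g10026 did not pass the test (0.35 ± 0.28).

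A denser group stood between tetur04g09490 and tetur04g09500, where all 7 off-step IDs were expressed. Of these, tetur04g09492 had 238.5, 226.3, 252.8 and 196.3 CPM in male replicates 1 to 4 and 6.75, 8.55, 8.77 and 6.57 CPM in female replicates 1 to 4. It alone made up most of the summed level of 300.3 ± 24.7 CPM in males, and its log2 fold change was -4.91 ± 0.10 (SE; edgeR adjusted p = 1.97e-15). The IDs on either side in the numbering, tetur04g09491 and tetur04g09493, were also higher in males, with -2.61 ± 0.29 and -2.32 ± 0.21. The rule set the direction of tetur04g09491, which passed in the 4 male libraries alone. Higher in males too was tetur04g09494, with -1.77 ± 0.07. The next IDs went the other way: tetur04g09495 and tetur04g09498 were higher in females by 1.58 ± 0.16 and 1.48 ± 0.06, and tetur04g09497 by 0.95 ± 0.14, under the 2-fold minimum. The summed level of the 7 in females was 106.9 ± 2.3 CPM, of which tetur04g09498 held 73.2 ± 2.5.

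Sums over the next 2 groups were closer between the sexes. Between tetur01g16350 and tetur01g16510, 6 of 14 off-step IDs were expressed, with a summed level of 218.2 ± 5.6 CPM in males beside 228.9 ± 7.4 CPM in females. Within it, tetur01g16371 stood at 86.7 ± 3.9 CPM in males beside 23.6 ± 0.5 CPM in females and was higher in males (-1.88 ± 0.05, SE), as was tetur01g16463 (-1.27 ± 0.16). The IDs tetur01g16351, tetur01g16381 and tetur01g16391 were higher in females by less than 2-fold (0.83 ± 0.05, 0.69 ± 0.07 and 0.50 ± 0.07), and tetur01g16483 was higher in females by 2.42 ± 0.24. Between tetur06g06650 and tetur06g06670, 5 of 9 were expressed, at 85.1 ± 3.7 CPM in males beside 60.0 ± 1.7 CPM in females. There tetur06g06658 (-1.01 ± 0.07) and tetur06g06666 (-1.55 ± 0.35) were higher in males. The expression rule set the direction of tetur06g06666, which passed in the 4 male libraries alone. The other 3 differed by less than 2-fold: tetur06g06657 by -0.68 ± 0.19, tetur06g06662 by 0.37 ± 0.07 and tetur06g06668 by 0.31 ± 0.13. For tetur06g06668 the adjusted p of 0.0348 by edgeR was above the threshold without male replicate 2 (0.127), without male replicate 3 (0.0701), without female replicate 2 (0.115), with the replicate block (0.0611), with the 5 CPM filter (0.0626) and with upper quartile scaling (0.467).

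Many regular IDs that bound off-step IDs had too few reads to be tested. The 58 off-step IDs that stand before the last regular ID lay in 17 intervals, bounded by 29 distinct regular IDs. Of these 29, 15 had too few reads to be tested, 5 were higher in males, 6 were higher in females, 1 differed by less than 2-fold and 2 did not pass. Over the whole table, 12885 of 17654 IDs had enough reads to be tested. Both bounding IDs were tested for 17 off-step IDs, of which 10 were called in a direction. Of these 10, 1 had the same call as both bounding IDs and 3 had a call that neither shared. Off-step IDs of an interval share the same bounding IDs, so these counts are a description. Of the 58, 41.4% were called toward males and 20.7% toward females, and of the 223 beyond the last regular ID, 49.8% and 21.1%. Among the expressed regular IDs within the last 20 of the same scaffolds, 35.5% of 501 tested were higher in males and 26.5% in females. None of these shares sets apart IDs that passed the expression rule in 1 sex alone, whose direction it set. In the 4 male libraries alone passed 49 of the 281 off-step IDs, against 602 of the 12070 regular IDs.

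Scaffold 02 had the most off-step IDs, 49, all beyond its last regular ID, and they were of mixed direction. Of the 49, 20 were higher in males (40.8%, against 30.5% of all tested genes) and 15 in females (30.6%, against 26.9%). A further 7 differed by less than 2-fold and 7 did not pass. Stretches of consecutive expressed IDs with the same call were looked for after the values were seen. The 5 consecutive IDs from tetur02g14701 to tetur02g14741 were all higher in females, by log2 fold changes of 2.51 to 5.23. Their summed level was 95 ± 3.6 CPM in females and 5.89 ± 0.51 CPM in males (SD, n = 4 each). The next expressed ID, tetur02g14751, went the other way, with 5.74 CPM in males and 1 read in the 4 female libraries. Further on, the 4 expressed IDs from tetur02g14961 to tetur02g15001 summed to 26.3 ± 1.4 CPM in males beside 0.129 ± 0.122 CPM in females. Each of these 4 passed the expression rule in the 4 male libraries alone, so the rule set their direction. Soon after these came tetur02g15051, at 24.7 CPM in females and 0.534 CPM in males, and then tetur02g15125 and tetur02g15135, both higher in males. The rule also set the direction of tetur02g14751, tetur02g14791, tetur02g14891, tetur02g14901, tetur02g14941, tetur02g15031, tetur02g15125 and tetur02g15135, all through males. Through females it set that of tetur02g14711 and tetur02g15175. The counts of 20 and 15 include all IDs whose direction the rule set.

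**Figure D5:**
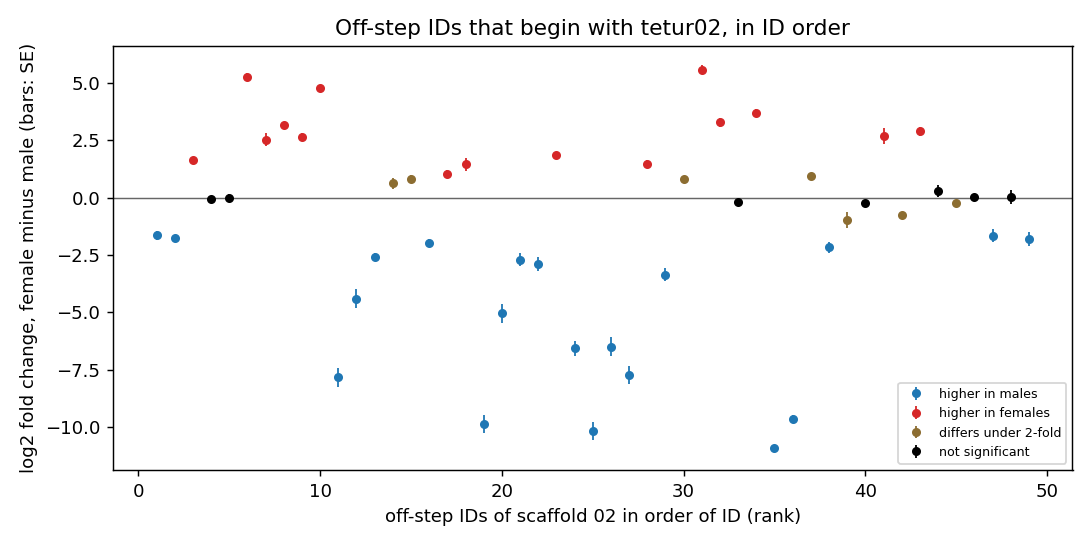
Log2 fold change (vertical, female minus male, bars are SE) of the 49 off-step IDs of scaffold 02 in order of ID (horizontal, rank; ID order is not a genome distance). Colours give the call. Of the 49, 20 lie below 0 as higher in males (40.8%, against 30.5% of all tested genes). Above 0 lie 15 as higher in females (30.6%, against 26.9%). Stretches of like direction stand next to stretches of the opposite one. IDs that passed the expression rule in 1 sex alone, such as tetur02g14961 to tetur02g15001, had to differ. For IDs with few reads in a sex the bars understate the error.

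Elsewhere the longest stretches were of IDs higher in males, the more common call among the 281. On scaffold 01, 7 consecutive expressed IDs from tetur01g16554 to tetur01g16884 were higher in males, by -2.10 to -3.70, and summed to 111.8 ± 14.9 CPM in males beside 12.1 ± 1.7 CPM in females (SD, n = 4 each). Their span holds 20 IDs, so that most of the IDs between them were not expressed. On scaffold 06, 5 consecutive expressed IDs from tetur06g06803 to tetur06g06973 were higher in males. Of these, tetur06g06803, tetur06g06953 and tetur06g06973 passed the expression rule in the 4 male libraries alone, so the rule set their direction. Of the 16 off-step IDs of that scaffold, 11 were higher in males (68.8%, against 48.0% of the 281) and 1 in females. Among the 11, tetur06g06666 and tetur06g06761 also passed in the male libraries alone. Scaffold 07 differed, with 3 of 10 higher in males and 4 in females. Over the last digits, the share higher in males ranged from 26.1% of 23 IDs ending in 7 to 62.9% of 35 ending in 3. Reads that near-identical copies share could not be examined for these stretches, and neighbouring IDs are not replicates.

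By the median, off-step IDs varied slightly more between pools of a sex than regular IDs did, and the sets were not matched for level. Among the 148 at 5 CPM or more in males, the highest library was a median of 1.20 times the lowest, against 1.15 for regular IDs, and 5 IDs differed by 2-fold or more. Among the 131 at 5 CPM or more in females the median was 1.19, against 1.15, and 0 IDs reached 2-fold. The ID tetur01g16884 varied most in males, with 13.9, 44.5, 30.8 and 44.9 CPM in male replicates 1 to 4. Its female libraries had 1.02, 3.16, 2.75 and 3.86 CPM, and all of them were below the lowest male library (log2 fold change -3.70 ± 0.38, SE). The ID tetur02g15167 had 2.77, 7.05, 4.38 and 7.29 CPM in male replicates 1 to 4 and 4.2, 0.770, 3.13 and 2.64 CPM in female replicates 1 to 4. The groups overlapped, and the adjusted p of 0.0165 by edgeR was 0.059 without male replicate 2 and 0.0846 with DESeq2. The third, tetur06g06953, had 7.15, 4.78, 7.93 and 3.42 CPM in male replicates 1 to 4 and 0.232 ± 0.206 CPM in females. Within females, tetur03g10143 varied most, by 1.98-fold, from 14.6 CPM in replicate 2 to 28.8 CPM in replicate 3, below the 55.8 to 92.1 CPM of the male libraries. The IDs tetur02g15011 and tetur14g04178 varied by 1.74-fold and 1.67-fold among female libraries, and for both the highest was replicate 3. They were called in opposite directions, with log2 fold changes of 1.46 ± 0.19 and -1.42 ± 0.13.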

How the data were processed

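The deposited table gives whole-number read counts per gene ID for 8 libraries, with no normalization by the authors, per the file headers and the values. The submitters' processing notes name STAR 2.4.1d and HTSeq 0.6.1 without settings; libraries were strand-specific per the labels' protocols, but the strand setting of the counting, the genome build and the handling of reads with several matches were not given in the sources used here, so overlapping, antisense or near-identical genes may share reads. Columns were matched to samples by name. There were 0 rows naming no gene and 0 unused columns.

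Off-step IDs were found by CPM of column sums (0.7 CPM in 4 libraries). Females were compared with males with edgeR 4.0.16 in R 4.3.3 (quasi-likelihood F test, sex as the only term, filterByExpr, TMM scaling), on all 12885 tested genes with Benjamini-Hochberg adjustment. All 281 off-step IDs were among them. CPM values in the text use TMM-scaled library sizes. A standard error is the size of a log2 fold change over the root of its F. It understates the error where 1 sex has few reads. The test step was checked on simulated counts. Shares of reads used exact permutation over 70 assignments (scipy 1.17.1). Alternatives were other scalings, other filters, DESeq2 1.42.0, limma-voom (limma 3.58.1), a replicate block, other expression thresholds and leaving out each library; stretches of like calls, abundance classes and the split of classes by how the rule was met were chosen after seeing the data.

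Named IDs follow a stated rule: per direction the 4 largest differences called at 10 CPM or more without overlap, the 6 with most reads, the 4 smallest differences at 10 CPM or more, IDs with 0 reads in a sex, the 2 nearest the threshold on either side, the 4 largest groups between regular IDs, and per sex the 3 most variable at 5 CPM or more. Others named were chosen after their values were seen. Members, lists and rule were chosen with earlier results of these data known.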

Additional observations from a re-analysis of the deposited data

Results flagged for a closer look

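In 6 of the 113 groups of 4 libraries tested for the named off-step IDs, 1 library lay apart from the other 3 by most of the group's range, and about 1 in 20 groups does so by chance. In females these were replicate 1 for tetur07g08169 (29.0 CPM, others 23.8 to 24.2), replicate 1 for tetur06g06803 (0.0567 CPM from 1 read, others 0) and replicate 3 for tetur04g09491 (0.153 CPM, others 0.429 to 0.462). In males they were replicate 1 for tetur04g09511 (4.52 CPM, others 3.46 to 3.61), replicate 4 for tetur03g09997 (1.03 CPM, others 0.0947 to 0.165) and replicate 3 for tetur02g15011 (3.72 CPM, others 2.45 to 2.51).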

How the results depend on the processing

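The counts of 135 off-step IDs higher in males, 59 higher in females and 251 differing stayed within 1.5 times in every alternative but 2, which leave fewer IDs by construction. With a filter at 5 CPM in 4 libraries, which tests 171 of the 281, they were 79, 38 and 160, and with 0.7 CPM required in all 8 libraries, which leaves 181, they were 67, 34 and 156. No ID was called in opposite directions in any of the 16 other fits. Libraries that share a replicate number were not paired: their deviations from the sex means had correlations of -0.12, -0.0054, 0.02 and 0.04, and for 1 library of 8 the closest match carried its own number. The replicate block gave 135, 59 and 246. Upper quartile scaling moved the median log2 fold change of all genes from -0.05 to -0.27 and gave 142, 53 and 250. The difference in the share of reads was -1.17 points, -0.87 without the ID with most reads, -0.32 without the 10 with most reads, and -1.19 to -1.14 as single libraries were left out, where an exact permutation test of 3 against 4 libraries cannot go below p = 0.0571. The sign of the smallest differences turned. The log2 fold change of tetur02g15193 was -0.209 with upper quartile scaling (edgeR adjusted p = 0.00072), -0.060 with the 5 CPM filter and -0.0188 to 0.0304 as libraries were left out; that of tetur05g09385 was -0.193 (0.00262), -0.0439 and -0.00921 to 0.0472. That of tetur27g02588 was 0.00795 with DESeq2's size factors, 0.00802 with DESeq2 and -0.117 to 0.0493 as libraries were left out. The cause was not tested. An ID with no read in a library may still lie below 0.142 to 0.248 CPM, the level of 3 reads.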
